A study of Zea mays with 6 samples.

Results

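The genes sps1, ivr2, incw1 and AGP2, 4 genes of sugar metabolism, were followed in the mesocotyl of deep-sown maize. They were picked by name, as the probe sets whose platform gene identifier carries that symbol or synonym. The rule found 4 probe sets, 1 for each gene, among 17734 on the array, of which 1452 have exactly 1 annotated gene. Their gene identifiers are LOC542711 for sps1, LOC542324 for ivr2, LOC542314 for incw1 and LOC542737 for AGP2. With case ignored 5 probe sets match, the added one being that of LOC542072, which carries the synonym Agp2 and is called here by its other synonym, Agpsemzm. All 4 probe sets passed the filter on low signals, which kept 10573. The genes were chosen with their differences between the groups known, so these differences are given as a description and without a test.

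The samples were mesocotyls of the maize inbred line 3681-4, from plants sown 20 cm deep, kept in darkness and sampled 10 days after sowing. The mesocotyl is the stem segment below the coleoptile node that pushes the shoot of a grass seedling up through the soil. Seedlings were untreated (control), received GA3, an active gibberellin, or received UCZ, which the series calls an inhibitor of gibberellin biosynthesis. For each of these 3 groups there were 2 arrays, named biological replicates in the labels, and so few arrays limit the precision of all values. The sources used here do not give doses, treatment times, the solvent or the number of plants per sample. No marker genes defining the mesocotyl itself were listed, so the labelled tissue was checked only against markers of other tissues.

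Sucrose is the form in which most plants move carbon, and a seedling in the dark lives on sugar sent from the seed. Sucrose phosphate synthase, encoded by sps1, makes sucrose phosphate, which a phosphatase turns into sucrose. Invertases split sucrose into glucose and fructose. The enzyme of ivr2 does so in the vacuole, where the hexoses draw in water in growing cells, and that of incw1 does so in the cell wall, where sucrose arrives from the phloem. ADP-glucose pyrophosphorylase, a complex of large and small subunits, makes the ADP-glucose from which starch is built. The symbol AGP2 is taken here to refer to this enzyme. The annotation used here gives symbols and no descriptions, so these roles follow from the names and were not checked further. The letters of AGP2 also occur, in other case, as a synonym of Agpsemzm, so its role as a starch gene is uncertain.

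Signals were those deposited, which share a trimmed mean near 500 on every array (500.1 to 500.2). Array medians lay between 183.1 and 203.2. The poly-A controls, bacterial transcripts that this system spikes into RNA ahead of labelling, had a mean log2(signal + 16) of 8.74 and 8.37 in control replicates 1 and 2, 8.66 and 8.09 in the GA3 arrays, and 9.26 and 9.04 in the UCZ arrays. They were thus brightest in UCZ within each replicate number. The actin 3′/5′ signal ratio, which rises as RNA is degraded or labelling is cut short, was 3.57 and 2.76 in the control arrays, 4.64 and 3.4 in the GA3 arrays, and 4.14 and 3.11 in the UCZ arrays, higher in each treated array than in the control array of its number. Of the marker lists for other tissues, the summed signal of 6 leaf photosynthesis genes, all above the filter, was 27068 and 29776 in the control arrays, 19869 and 20910 in the GA3 arrays, and 28244 and 29316 in the UCZ arrays. Only 1 of 5 kernel storage genes passed the filter (gz27), with summed signals for the list from 149.7 to 204.2 over the 6 arrays. In the basal endosperm transfer layer list 1 of 3 genes passed (betl4), and the list summed to 66.42 to 107.6 in control and GA3 against 270.8 and 297.8 in UCZ. The single root marker pht1 lay between 675.4 and 901.8. What these shifts contribute to the differences described next was not tested.

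The gene of sucrose synthesis, sps1, was bright in control and dim in both treated groups. Its signal was 357.0 and 362.0 in control replicates 1 and 2, 124.3 and 107.3 in the GA3 arrays, and 135.1 and 100.7 in the UCZ arrays. Both control arrays stood above all 4 treated arrays, and the GA3 and UCZ values overlapped. Group means were 359.5 ± 3.53 in control, 115.8 ± 12.1 in GA3 and 117.9 ± 24.3 in UCZ (SD, n = 2). On the log2(signal + 16) scale used for every difference, which understates changes of dim probe sets, sps1 was 2.85-fold lower in GA3 than in control (log2 difference −1.51, SE 0.175). In UCZ it was 2.83-fold lower than in control (−1.5, SE 0.175). The 2 treated groups differed by −0.01 (GA3 minus UCZ), less than the standard error. These comparisons share the control arrays. Ranked among the 10573 probe sets kept, 30 were lower by at least as much in GA3 versus control, sps1 included, and 90 in UCZ versus control. Such ranks, here and below, are descriptive only, since the genes were chosen with these differences known. In a bulk sample, fewer cells of a type and less RNA per cell cannot be told apart, here and for every gene that follows.

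The vacuolar invertase gene, ivr2, had its low values in UCZ. Its signal was 3480 and 2769 in the control arrays, 3128 and 3752 in the GA3 arrays, and 1478 and 1085 in the UCZ arrays. Control and GA3 overlapped, since the GA3 values enclosed control replicate 1 and lay above control replicate 2. Both UCZ arrays lay below the other 4. Means were 3125 ± 503, 3440 ± 441 and 1281 ± 278 (SD, n = 2) in control, GA3 and UCZ. In UCZ the gene was 2.43-fold lower than in control (log2 difference −1.28, SE 0.186) and 2.68-fold lower than in GA3 (GA3 minus UCZ, 1.42). GA3 versus control gave 0.14 (SE 0.186), with −0.15 within replicate 1 and 0.44 within replicate 2, so the replicates pointed opposite ways. Among all probe sets kept, 151 were lower by as much or more in UCZ versus control, ivr2 included.

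The cell wall invertase gene, incw1, stood on the opposite side of control from ivr2 under UCZ. Its signal was 157.2 and 151.2 in the control arrays, 204.0 and 212.1 in the GA3 arrays, and 340.0 and 278.1 in the UCZ arrays. The groups were ordered control, GA3, UCZ with no overlap. Means were 154.2 ± 4.25, 208.0 ± 5.67 and 309.0 ± 43.8 (SD, n = 2). UCZ exceeded control 1.90-fold (log2 difference 0.93, SE 0.152), and GA3 exceeded control 1.32-fold (0.40, SE 0.152). GA3 minus UCZ was −0.53 (SE 0.152). Of all probe sets kept, 136 exceeded control by at least as much in UCZ and 468 in GA3, incw1 included. The order of UCZ and GA3 held under the deposited scaling, median centring and quantile normalization. When arrays were scaled to the poly-A controls it turned, to 0.24, a value below its standard error (0.343). Between UCZ and control the difference was 0.33 under that scaling, also below its standard error (0.343).

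AGP2, taken by its name as a starch synthesis gene, was high in UCZ, with control and GA3 overlapping. Its signal was 229.0 and 296.0 in the control arrays, 300.5 and 284.0 in the GA3 arrays, and 676.1 and 519.0 in the UCZ arrays. Both UCZ values lay above the rest, and those of control and GA3 overlapped. Means were 262.5 ± 47.4, 292.3 ± 11.7 and 597.6 ± 111 (SD, n = 2). UCZ was 2.20-fold above control (log2 difference 1.14, SE 0.182) and GA3 was 1.97-fold below UCZ (−0.98). GA3 versus control gave 0.16 (SE 0.182), with 0.37 in replicate 1 and −0.06 in replicate 2. The excess of UCZ over control was 1.5 in replicate 1 and 0.78 in replicate 2. With poly-A control scaling the UCZ versus control difference was 0.54 (SE 0.337) and GA3 minus UCZ was −0.21 (SE 0.337). Of all probe sets kept, 67 exceeded control by at least as much in UCZ, AGP2 included.

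**Figure D1:**
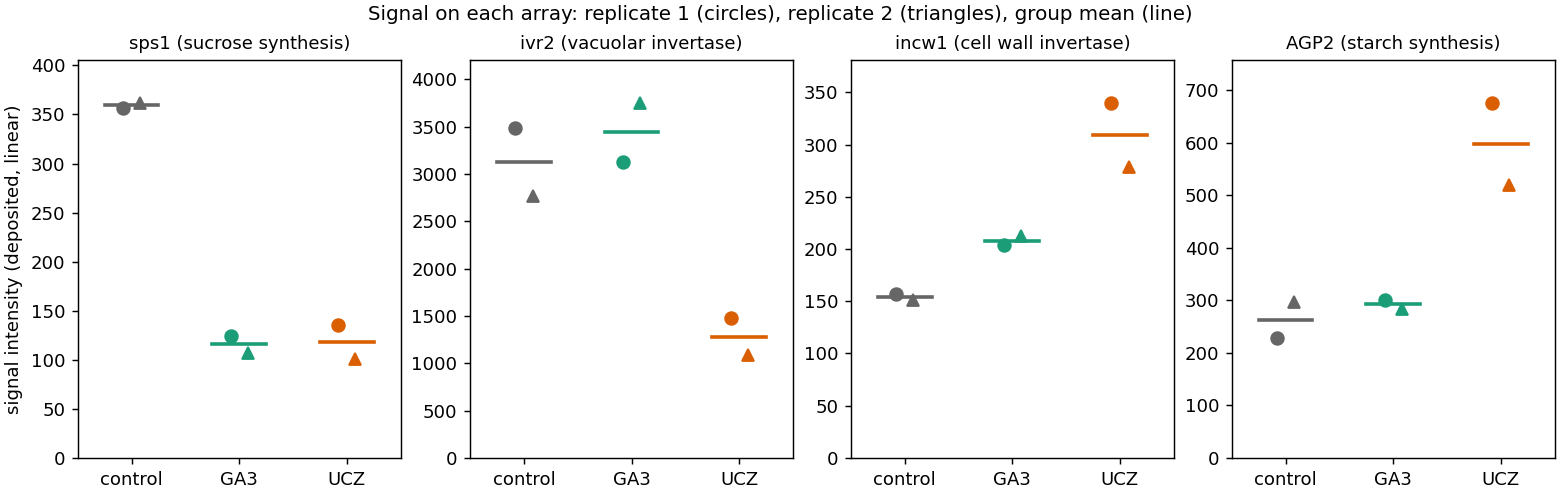
Deposited signal intensity (linear axis from 0) of sps1, ivr2, incw1 and AGP2 in control, GA3 and UCZ mesocotyls, with replicate 1 as circles, replicate 2 as triangles and the group mean as a line. The control arrays stand apart for sps1, the UCZ arrays stand apart for ivr2 (low) and AGP2 (high), and the groups do not overlap for incw1.

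Counted together, the GA3 and control arrays did not overlap for 2 of the 4 genes (sps1 and incw1), as against 40.1% of all probe sets kept (21.6% higher and 18.5% lower in GA3). UCZ and control did not overlap for any of the 4, against 61.1% (28.3% higher and 32.7% lower in UCZ). GA3 and UCZ did not overlap for ivr2, incw1 and AGP2, against 57.5% (32.3% higher and 25.2% lower in GA3). These shares say nothing further here, since the genes were chosen for their differences. Within UCZ, replicate 2 was below replicate 1 for each of the 4 genes, by ratios of 0.746 for sps1, 0.734 for ivr2, 0.818 for incw1 and 0.768 for AGP2. In control these ratios were 1.01, 0.796, 0.962 and 1.29, and in GA3 they were 0.863, 1.20, 1.04 and 0.945, so no common direction was seen there. The differences within replicate numbers must share a sign wherever the groups do not overlap, so only their sizes are given. For sps1 they were −1.41 and −1.62 in GA3 versus control and −1.30 and −1.70 in UCZ versus control. For ivr2 they were −1.23 and −1.34 and for incw1 1.04 and 0.81 in UCZ versus control.

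**Figure D2:**
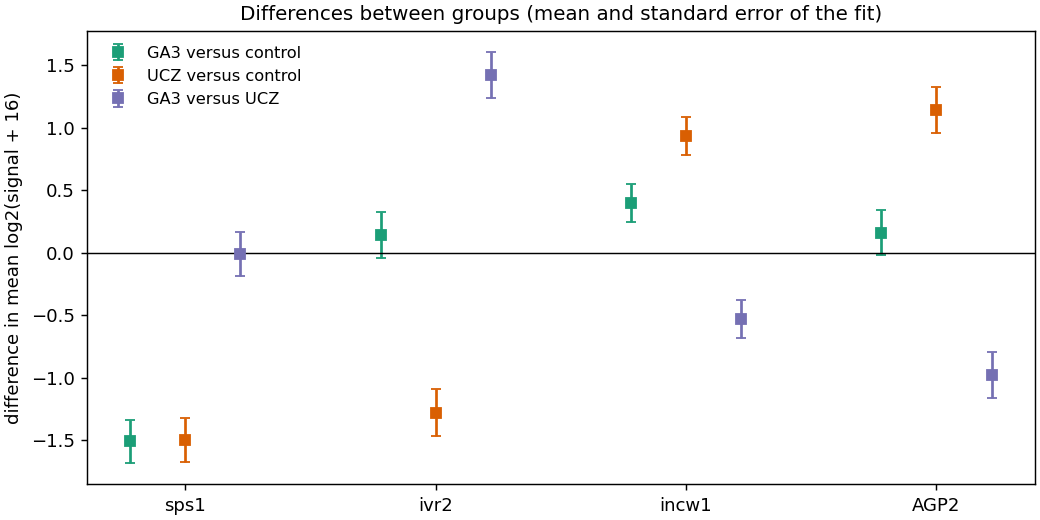
Differences between group means on the log2(signal + 16) scale for sps1, ivr2, incw1 and AGP2 in GA3 versus control, UCZ versus control and GA3 versus UCZ, with the standard error of the fit (n = 2 arrays a group). For sps1 the differences from control are −1.51 in GA3 and −1.5 in UCZ, while ivr2 (−1.28) and AGP2 (1.14) differ from control mainly in UCZ.

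The ratio of 2 signals on the same array does not change when that array is multiplied by a scaling factor, and such ratios were therefore set beside the single values. They were taken from the signals as deposited, with no constant added, and each is given as log2 relative to the control mean. The ratio of vacuolar to cell wall invertase signal, ivr2 over incw1, was −2.21 and −2.37 in UCZ, a mean of −2.29 ± 0.110 (SD, n = 2) or a 4.89-fold lower ratio. In GA3 it was −0.39 and −0.19 and the control arrays lay at 0.14 and −0.14, so both UCZ values were far below the control spread and both GA3 values slightly below it. The ratio of ivr2 to AGP2 was −2.45 and −2.51 in UCZ, −0.20 and 0.15 in GA3, and 0.35 and −0.35 in control. Here the GA3 arrays lay within the control spread and the UCZ arrays below it.

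Ratios with sps1 on top set sucrose synthesis against the other steps. The ratio of sps1 to AGP2 was −1.74 and −1.87 in GA3 and −2.79 and −2.83 in UCZ, with control arrays at 0.18 and −0.18. Both treated groups were thus below control, and the UCZ mean was lower than that of GA3 (UCZ minus GA3, −1.01). For sps1 over incw1 the values were −1.94 and −2.20 in GA3 and −2.55 and −2.69 in UCZ, against −0.04 and 0.04 in control. The ratio of sps1 to ivr2 was −1.54 and −2.02 in GA3, −0.34 and −0.32 in UCZ, and −0.17 and 0.17 in control. It was thus below control in both treated groups, by much more in GA3 (3.43-fold) than in UCZ (1.26-fold). The ratio of incw1 to AGP2 lay between −0.24 and 0.33 on all 6 arrays, with control arrays at 0.21 and −0.21.

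**Figure D3:**
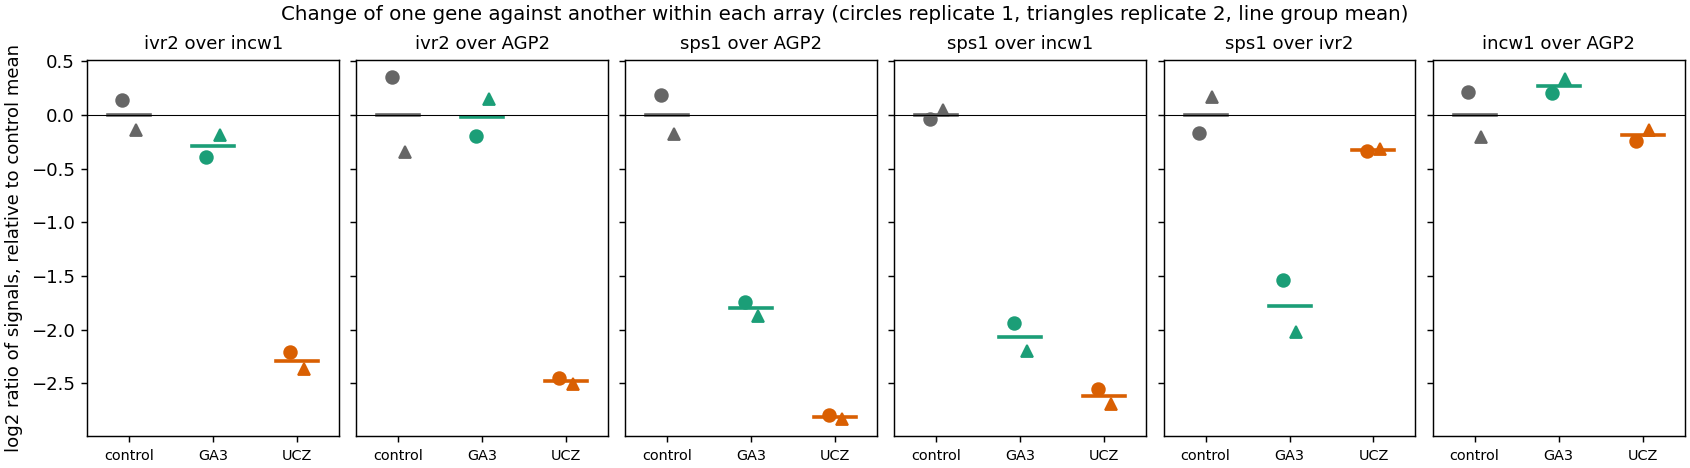
Log2 ratio of the deposited signals of 2 genes on the same array, relative to the control mean, in control, GA3 and UCZ (circles replicate 1, triangles replicate 2, line group mean). The ratios of ivr2 to incw1 and to AGP2 are low in UCZ (means −2.29 and −2.48), the ratio of sps1 to ivr2 is lowest in GA3 (−1.78), and that of incw1 to AGP2 lies between −0.24 and 0.33 on all arrays.

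Among the other named genes, the pattern closest to that of each gene was looked up by Pearson correlation of log2 signals over the 6 arrays, among 846 named probe sets kept. The arrays fall into groups and share their scaling, so these coefficients only describe likeness. Closest to sps1 were sus1, a sucrose synthase gene (r = 0.979), me3 (0.971) and Lsi1 (0.964). Control values of sus1 were 6906 and 7072, against 5813 to 6059 on the treated arrays, a much smaller step than that of sps1. For me3, one of the leaf photosynthesis markers, they were 1813 and 1808, against 710.4 to 877.9. The summed signal of that list did not share this pattern in UCZ. It was 28244 and 29316 there, 19869 and 20910 in GA3, and 27068 and 29776 in control. Closest to ivr2 were tip2a (0.994), gst31 (0.993) and prf5 (0.990), and tip2a had signals of 7719 and 6995 in the control arrays, 6888 and 8150 in the GA3 arrays, and 3168 and 2362 in the UCZ arrays. Closest to incw1 were GRP (0.993), rps6 (0.991) and rps6-2 (0.986), and closest to AGP2 were adss1 (0.970), ids1 (0.945) and rpp2a-4 (0.944). At r of at least 0.9 there were 18 named probe sets for sps1, 55 for ivr2, 32 for incw1 and 24 for AGP2. Between the genes themselves incw1 and AGP2 had r = 0.925, ivr2 and AGP2 −0.896, and sps1 and ivr2 0.412.

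The other genes of sucrose and starch metabolism on the array were taken from a list of names, which matched 27 genes. Of these, 15 passed the filter and were tested, each by its brightest probe set, in a limma fit over all probe sets with Benjamini-Hochberg adjustment. In GA3 versus control 0 of 15 were called, where 1.32% of all probe sets were, 0.482% higher and 0.842% lower (4 of 15 at an unadjusted p under 0.05). Their median difference was −0.01, against 0.017 for all probe sets. With the replicate number as a block 3 were called, Agpsemzm and mstr1 higher and agpsl1 lower, where 866 of all 10573 probe sets were. In UCZ versus control 2 of 15 fell and 0 rose, where 15.4% of all probe sets were called (6.44% higher, 8.97% lower). Their median was 0.02 against −0.026. With the block 3 rose and 5 fell, where 3662 of all 10573 probe sets were called (1642 higher, 2020 lower). In GA3 versus UCZ 2 were higher and 1 lower in GA3, where 13.9% were called (7.61% higher, 6.33% lower), with a median of 0.00 against 0.040. Without the block, the count in UCZ versus control is close to the share of all probe sets.

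The calls in UCZ versus control belonged to a sucrose transporter and a fructokinase. The sucrose transporter gene sut1, measured by a probe set whose suffix marks a possible match to several transcripts, had signals of 1382 and 1724 in the control arrays, 1286 and 1350 in the GA3 arrays, and 801.8 and 803.5 in the UCZ arrays. It fell 1.91-fold in UCZ versus control (log2 difference −0.93, SE 0.139, limma adjusted p = 0.00612) and was higher in GA3 than in UCZ by 0.70 (adjusted p = 0.0166). The fructokinase gene frk1 had 1274 and 1151 in the control arrays, 1229 and 1187 in the GA3 arrays, and 886.3 and 772.3 in the UCZ arrays. It fell by 0.54 in UCZ versus control (SE 0.129, limma adjusted p = 0.0307) and was higher in GA3 than in UCZ by 0.54 (adjusted p = 0.0337). The UCZ arrays were the lowest for both genes, as they were for ivr2. A second fructokinase gene, frk2, had signals from 4216 to 4645 with no call. As deposited, its UCZ minus control difference was −0.02 (95% interval −0.26 to 0.22). Leaving out either control or either UCZ array left sut1 as the 1 call in UCZ versus control. In GA3 versus UCZ sut1 alone was called without either control array, and 0 were called without either GA3 or either UCZ array. With median centring frk1 was called in neither comparison. Under that scaling the calls in UCZ versus control were Agpsemzm and mstr1 (higher) and sut1 (lower). The mstr1 probe set carries the same suffix as that of sut1. A second mstr1 probe set differed by 0.13 in UCZ versus control with the deposited scaling (limma adjusted p = 0.597). With poly-A control scaling sut1 and frk1 were called in both comparisons, with UCZ versus control differences of −1.52 and −1.14.

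ADP-glucose pyrophosphorylase genes differed among themselves. The gene agpsl1, with the synonym ADPG-PPase, had 1088 and 1087 in the control arrays, 724.8 and 826.6 in the GA3 arrays, and 1137 and 1069 in the UCZ arrays. It was lower in GA3 than in UCZ by a log2 difference of −0.50 (SE 0.125, limma adjusted p = 0.0383), and missed the threshold in GA3 versus control (−0.48, adjusted p = 0.148, or 0.0157 with the block). With poly-A control scaling the GA3 versus UCZ call ended and the direction turned, to 0.27 (limma adjusted p = 0.448). Agpsemzm, whose synonym Agp2 repeats the letters of AGP2, had 612.2 and 509.6 in the control arrays, 1032 and 769.0 in the GA3 arrays, and 948.9 and 822.1 in the UCZ arrays. Both treated groups lay above control, by 0.66 in GA3 (limma adjusted p = 0.170, or 0.00221 with the block) and 0.65 in UCZ (0.0502, or 0.000696 with the block). With scaling to either set of poly-A controls, Agpsemzm was called in neither treated group versus control, but higher in GA3 than in UCZ. The gene bt2, the small subunit of the endosperm enzyme, ranged from 109.6 to 167.4 with no call as deposited. Scaling to the second set of poly-A controls called bt2 higher in GA3 than in UCZ. Its partner sh2, the large subunit, was below the filter on its brightest probe set (16.50 to 36.98).

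Sucrose synthase genes, whose enzymes split sucrose with UDP, had no call among 3 with the deposited scaling and no block. The brightest, sus1, differed from control by −0.23 in GA3 and −0.24 in UCZ (limma adjusted p = 0.358 and 0.105, or 0.153 and 0.0496 with the block). For sh1 the GA3 minus UCZ difference was 0.43 (limma adjusted p = 0.0559, or 0.00513 with the block), while sus2 lay between 497.0 and 607.2. Quantile normalization called sh1 and sus1 lower in UCZ versus control, and sh1 higher in GA3 versus UCZ. Both poly-A scalings also called sh1 higher in GA3 versus UCZ. The sucrose phosphatase gene spp1, which acts directly after sps1, had signals from 1073 to 1167 on all 6 arrays. As deposited, its difference from control was −0.01 in GA3 (95% interval −0.28 to 0.26) and 0.03 in UCZ (−0.24 to 0.30). The poly-A scalings, which called 6149 and 6835 of all 10573 probe sets in GA3 versus UCZ, called spp1 higher in GA3. Its relative spp2, below the filter, had 124.9 and 126.7 in the control arrays, 64.93 and 81.88 in the GA3 arrays, and 53.30 and 74.48 in the UCZ arrays, so that both control arrays stood above all treated arrays, as for sps1. Without the filter its adjusted p (limma) was 0.300 in GA3 versus control and 0.057 in UCZ versus control.

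The other invertase genes on the list, incw3 and mn1, were below the filter, with at most 22.78 and 37.04 on any array. Starch synthase gene ss1 differed by −0.38 in UCZ versus control without passing as deposited (limma adjusted p = 0.0982, or 0.0218 with the block), and wx1 and du1 were below the filter. Both poly-A scalings called ss1 lower in UCZ than in control and than in GA3. Of 6 branching and debranching genes 2 were tested (iso2 and zpu1) with no call as deposited, and the brighter, zpu1, ranged from 292.6 to 406.4. Scaling to the second set of poly-A controls called zpu1 higher in GA3 than in UCZ. The 1 gene of starch breakdown, with the synonyms BMY1 and amy5 of amylases, was below the filter, at 112.9 and 96.03 in the control arrays, 53.00 and 51.64 in the GA3 arrays, and 20.17 and 24.20 in the UCZ arrays. Without the filter it fell in UCZ versus control (log2 difference −1.66, limma adjusted p = 0.00505). On its brightest probe set, the sugar transporter gene mstr1 was above control in GA3 by 0.65 (limma adjusted p = 0.155, or 0.0025 with the block). Its second probe set gave 0.52 (limma adjusted p = 0.223, or 0.0267 with the block). The hexose phosphate isomerase gene phi1 ranged from 1390 to 1985. Its UCZ versus control difference was 0.28 (limma adjusted p = 0.259, or 0.0487 with the block).

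**Figure D4:**
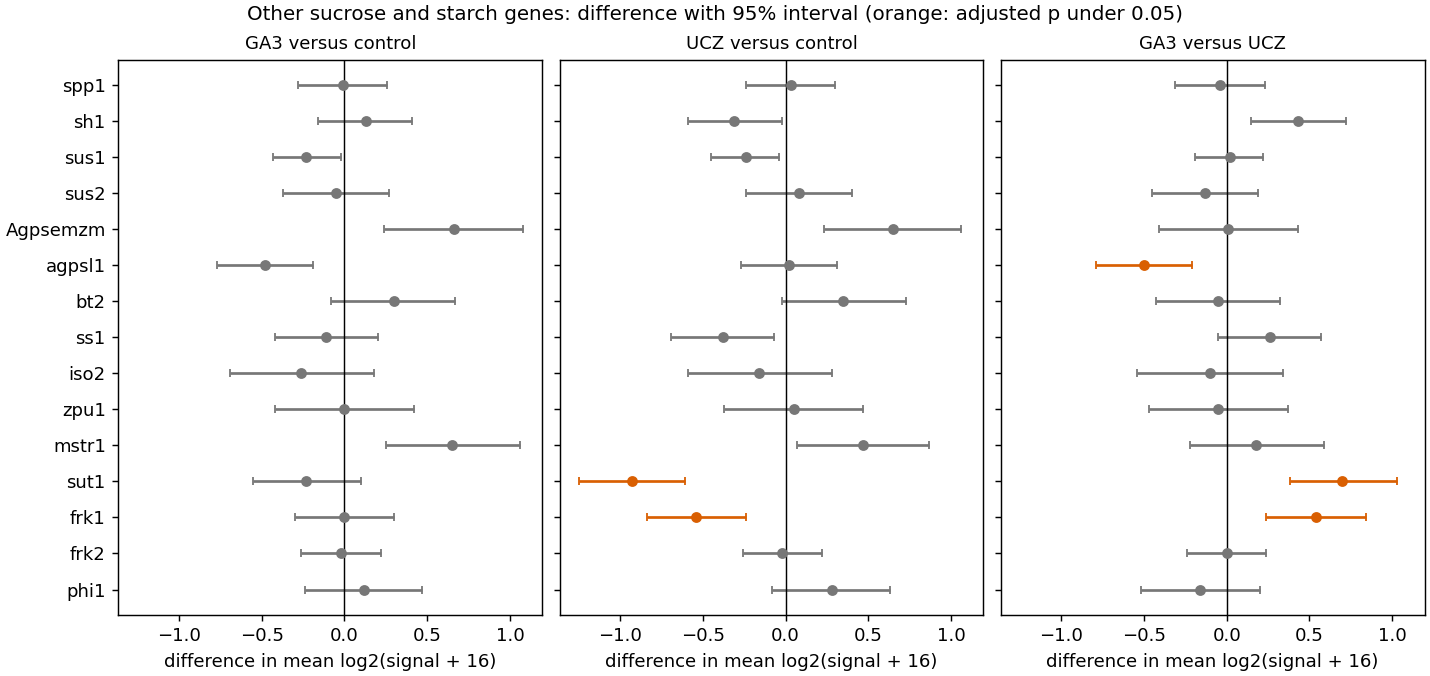
Differences in mean log2(signal + 16) for the 15 other sucrose and starch genes that passed the filter, each with its 95% interval, in the 3 comparisons, with calls (limma adjusted p under 0.05) in orange. The calls are sut1 and frk1 in UCZ versus control, and sut1, frk1 and agpsl1 in GA3 versus UCZ.

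The scaling of the arrays changed the size of these differences, and in GA3 versus UCZ the sign for incw1 and sps1. For incw1 the value after the change (0.24) was below its standard error (0.343). With arrays scaled to the poly-A controls, the median probe set differed by −0.621 in UCZ versus control (−0.026 as deposited). That median was 0.810 in GA3 versus UCZ (0.040 as deposited) and 0.193 in GA3 versus control (0.017 as deposited). Under it sps1 was lower than control by −1.34 in GA3 and −2.09 in UCZ, so that GA3 exceeded UCZ by 0.76, where the deposited scaling gave −0.01. For ivr2 the UCZ versus control difference was −1.88. Relative to the shift of the median probe set, incw1 and AGP2 were above it in UCZ versus control. Of all calls in UCZ versus control, 41.8% were higher as deposited, 60.9% with median centring and 0.69% with poly-A scaling. In GA3 versus UCZ these shares were 54.6%, 40.1% and 99.7%, and in GA3 versus control 36.4%, 37.9% and 51.2%.

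**Figure D5:**
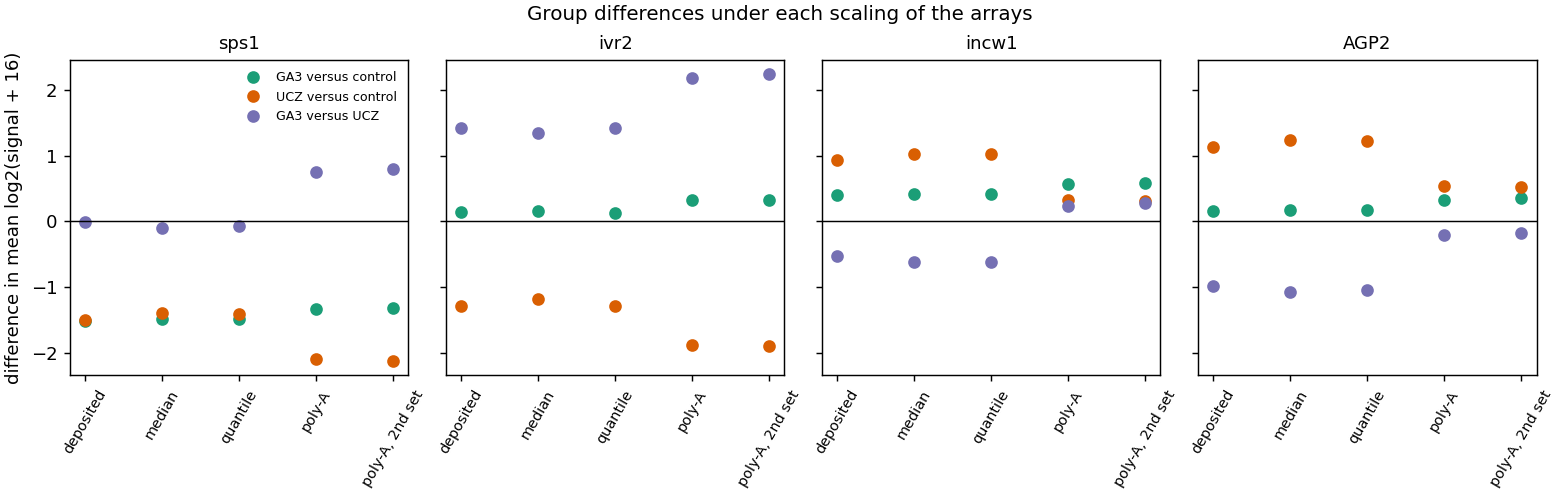
Group differences in mean log2(signal + 16) of sps1, ivr2, incw1 and AGP2 with the deposited scaling, median centring, quantile normalization, and scaling to either set of poly-A controls. The GA3 minus UCZ difference of incw1 passes from −0.53 as deposited to 0.24 (SE 0.343) with poly-A scaling. The difference of UCZ from control keeps its sign for each of the 4 genes, but for incw1 it is then 0.33 (SE 0.343), below its standard error.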

How the data were processed

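The data are signal intensities from 6 Affymetrix maize arrays, 2 each for control, GA3 and UCZ, hybridized with biotin-labelled cRNA from mesocotyl RNA. The intensity values were deposited by the authors on a linear scale and, per the submitters' processing notes, made with GCOS and MAS5. Their trimmed mean (2% off each side) was nearly the same on every array.

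The 113 manufacturer control probe sets were left out, 16 was added to each signal before taking log2, and probe sets outside the brightest 60% by mean were dropped (10573 kept, lowest mean log2 6.96). Group means were fitted to all 6 arrays with limma 3.58.1 in R 4.3.3 (lmFit, eBayes with trend, two-sided), with Benjamini-Hochberg adjustment over the probe sets kept and a threshold of 0.05. The fit was run on simulated data with independent noise on each array, which leaves out the correlation of same-numbered arrays described below. There it called 59.7% of probe sets changed 1.5-fold and 100% of those changed 2-fold, with 5 false calls. The simulated noise was drawn around a common size with limited spread between probe sets, and only UCZ was changed. How many real changes of these sizes the fit would call was therefore not measured. Plots used Python 3.11.15 with matplotlib 3.10.9.

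Replicate numbers were taken to mark the independent experiments of the series' design text. Deviations from the group means of same-numbered arrays correlated at 0.664 (control with GA3), 0.724 (control with UCZ) and 0.755 (GA3 with UCZ). The number as a block was an alternative, beside other scalings, pseudocounts of 1 and 64, other filters, no trend, only the 2 groups compared, and leaving out each array. Nothing states that samples came from separate plants beyond the replicate labels, so p-values measure the spread between these arrays.

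Gene names came through gene identifiers from the platform annotation, and 1060 of 1108 genes were found in a RefSeq table (Zm-B73-REFERENCE-NAM-5.0), from which no coordinates were taken. Its lack of descriptions meant that the list of other genes was matched by name alone. The members and lists were chosen with earlier results of these data known. Named were the 4 genes, the other listed genes called in any comparison, the brightest of each role without a call, and the 3 named genes most like each of the 4. Further listed genes were named after their values were seen. No sequences are shown.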

Additional observations from a re-analysis of the deposited data

How the results depend on the processing

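Of the differences of the 4 genes under other settings, 101 moved by less than the spread between replicates and 31 by more. In 8 cases the sign was another than as deposited, and 6 of these began from a difference smaller than that spread, namely sps1 in GA3 versus UCZ (−0.01) and ivr2 and AGP2 in GA3 versus control. Without control replicate 2 ivr2 was at −0.02 there, and without control replicate 1 AGP2 was at −0.02. The other changes of sign were those of incw1 in GA3 versus UCZ, which went from −0.53 to 0.24 with poly-A control scaling and to 0.28 with the second set of 12 poly-A probe sets, a setting chosen after seeing the data. The same 2 scalings gave, for sps1, −1.34 and −1.32 in GA3 versus control, −2.09 and −2.12 in UCZ versus control, and 0.76 and 0.80 in GA3 versus UCZ. For ivr2 they gave −1.88 and −1.90 in UCZ versus control and 2.19 and 2.24 in GA3 versus UCZ. For incw1 they gave 0.57 and 0.59 in GA3 versus control and 0.33 and 0.31 in UCZ versus control. For AGP2 they gave 0.54 and 0.52 in UCZ versus control and −0.21 and −0.17 in GA3 versus UCZ. The incw1 values in UCZ versus control and in GA3 versus UCZ under both scalings were below their standard errors (0.343 and 0.337). Adding 64 before the log gave −1.24 and −1.23 for sps1 in GA3 and UCZ versus control and 0.77 for incw1 in UCZ versus control, a shrinkage that the larger constant builds in. Leaving out 1 array gave −1.69 to −1.31 for sps1 in UCZ versus control, −0.20 to 0.17 for sps1 in GA3 versus UCZ, 0.79 to 1.06 for incw1 in UCZ versus control and −0.67 to −0.39 for incw1 in GA3 versus UCZ. Ratios within arrays taken from signal + 16 in place of the signals, a comparison also chosen after seeing the data, kept their direction and moved by more than the spread for sps1 over AGP2 in UCZ (−2.64) and sps1 over incw1 in GA3 and UCZ (−1.91 and −2.43). The replicate block leaves the differences as they are and gave standard errors of 0.155 for sps1, 0.140 for ivr2, 0.145 for incw1 and 0.159 for AGP2.

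Counts of all probe sets called, 140 in GA3 versus control, 1629 in UCZ versus control and 1474 in GA3 versus UCZ, became 866, 3662 and 3271 with the replicate block, 86, 3042 and 6149 with poly-A control scaling, and 89, 3515 and 6835 with the second poly-A set. The brightest 40% gave 78 in GA3 versus control. Without 1 array they ranged from 51 to 112, from 552 to 1546 and from 541 to 1154. For the other sucrose and starch genes the block gave 3 in GA3 versus control and 8 in UCZ versus control. Quantile normalization gave 5 in UCZ versus control, where it called 1682 of all 10573 probe sets. In GA3 versus UCZ, 3 became 7 and 9 with the poly-A scalings, 5 of 27 without the filter and 1 with only the 2 groups compared. Of all probe sets, 1210 of 17621 were called without the filter and 1149 of 10573 with only the 2 groups. Without 1 array the list had 1 to 3 calls in UCZ versus control and 0 to 1 in GA3 versus UCZ. The cause of these changes was not tested, except that fewer arrays or probe sets enter some fits. Probe sets with low signals were not tested, which left out 12 of the 27 listed genes.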

Other observations

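Some listed starch genes were below the filter and so not tested. The brightest probe set of ae1, a starch branching enzyme gene, had 42.82 and 50.73 in the control arrays, 67.89 and 67.40 in the GA3 arrays, and 14.57 and 26.52 in the UCZ arrays. Without the filter it was higher in GA3 than in UCZ (log2 difference 1.21, limma adjusted p = 0.023). A second probe set of this gene, at most 14.82 on any array, went the other way (−0.4, limma adjusted p = 0.475). The gene du1 had at most 18.09 and wx1 at most 2.224 on any array. Neither su2 nor AGPLS3, added to the list after the matched names were seen, passed the filter, so the counts of calls with them were 0, 2 and 3 as before.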
